A study of Mus musculus with 9 samples.

Results

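The major histocompatibility complex (MHC) class I processing and immunoproteasome genes were followed in mouse bone marrow-derived macrophages activated through CD40. The set held 10 genes chosen by function, with earlier results of the same arrays known. Among them were the peptide transporter subunits Tap1 and Tap2, the loading factor Tapbp, the class I light chain B2m and the heavy chains H2-K1 and H2-D1. The others were the immunoproteasome subunits Psmb8, Psmb9 and Psmb10, and the class I transactivator Nlrc5. The arrays carried 20 probes for them, of which 18 met the detection limit used here, a detection p below 0.05 on 3 or more of 9 arrays, and in fact met it on every array. The other 2 probes, probe 2 of B2m and probe 3 of H2-D1, were detected on 0 arrays, and each of the 10 genes kept at least 1 probe. The 10 genes are part of 9081 named genes with a detected probe, and the 18 probes part of 16415 detected probes among 45281.

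T6877002 macrophages received the compound TRAF-STOP 6877002 for 1 h before 8 h with FGK45, an antibody that activates CD40, given at 25 ug/ml. T6860766 macrophages received TRAF-STOP 6860766 and CTRL macrophages received vehicle, with the same times and the same antibody. TRAF-STOPs are compounds designed against the interaction of CD40 with its adaptor protein TRAF6. All cells were grown from C57Bl/6 marrow in L929-conditioned medium, and each group had 3 arrays on a 1-colour Illumina bead platform. Compound doses are not in the labels, so the 2 compounds cannot be said to be at matched doses. No group lacked the antibody, so every difference is among CD40-activated cells.

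The 3 arrays of a group carry mouse numbers 1, 2 and 3, so the same numbers recur in every group. The labels do not say whether a number marks the same animal in another group. The 9 arrays lay on 4 slides, which are glass carriers and not necessarily extraction batches. Slide 1 held CTRL replicate 1 with T6860766 replicates 1 and 2, slide 2 held CTRL replicate 2, slide 3 held T6877002 replicates 1 and 2 with T6860766 replicate 3, and slide 4 held T6877002 replicate 3 with CTRL replicate 3. Slide 1 therefore held no T6877002 array, and values within slides are given beside the results. Between 15271 and 15926 probes were detected per array. All 8 macrophage marker genes on the array were detected, with summed linear signals of 82432 to 84738 in T6877002, 78010 to 86911 in T6860766 and 82364 to 90461 in CTRL. Of 15 macrophage marker probes, 2 were called higher in T6877002 than in CTRL (1.68% of all detected probes) and 1 lower in T6860766 than in CTRL (1.54%). Between the compounds 1 was higher in T6877002 than in T6860766 (3%). In these 3 comparisons the log2 differences of the 15 probes ran from -0.22 to 0.63, from -0.55 to 0.14 and from -0.08 to 1.01. No T cell, NK cell, dendritic cell or fibroblast marker was detected. Cd79b was the 1 detected B cell marker of 3, and the summed linear signals of the B cell marker probes were 133 to 151 in T6877002, 146 to 161 in T6860766 and 157 to 162 in CTRL, so that T6877002 lay below CTRL. These low sums take in all 4 B cell marker probes on the array, undetected ones included. None of the 2 Cd79b probes passed the test in any comparison. Of the neutrophil markers, 5 of 6 genes were detected, at summed linear signals of 2196 to 2489 in T6877002, 2078 to 2388 in T6860766 and 2101 to 2433 in CTRL, ranges that overlapped. The part of cell composition in the results below was not tested, and in such bulk RNA fewer cells of a type cannot be told apart from less RNA per cell.

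Class I molecules show fragments of intracellular proteins to CD8+ T cells. The proteasome cuts the proteins, and in cells exposed to inflammatory signals its catalytic subunits are replaced by the immunoproteasome subunits encoded by Psmb8, Psmb9 and Psmb10. The Tap1 and Tap2 proteins form the transporter that carries the peptides into the endoplasmic reticulum, where tapasin, encoded by Tapbp, bridges the transporter to waiting class I molecules made of a heavy chain and beta-2 microglobulin. Interferons, NF-kB and the transactivator NLRC5 are known to raise many of these genes together, and macrophages use the pathway both for their own proteins and for cross-presentation of engulfed ones.

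Promoter windows are shown for 4 members whose values differ most in kind below: Tap1, which separated all 3 groups, the heavy chains H2-K1 and H2-D1, whose probes disagreed, and B2m, which did not separate any pair of groups. The windows are from RefSeq on GRCm38.p6, run 5′ to 3′ on the gene's strand, and hold 250 bases before and 50 after the annotated start. Tap1 lies at chr17:34187306-34187605 on the plus strand, H2-K1 at chr17:34000298-34000597 on the minus strand, H2-D1 at chr17:35262844-35263143 on the plus strand and B2m at chr2:122147437-122147736 on the plus strand. Capitals mark matches on either strand to the motifs described after the sequences.
Tap1: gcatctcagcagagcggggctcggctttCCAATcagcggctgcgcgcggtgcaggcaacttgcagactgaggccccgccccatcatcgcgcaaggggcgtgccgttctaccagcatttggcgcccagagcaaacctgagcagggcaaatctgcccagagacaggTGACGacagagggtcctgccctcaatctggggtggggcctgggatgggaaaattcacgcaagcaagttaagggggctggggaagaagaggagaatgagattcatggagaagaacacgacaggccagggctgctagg
H2-K1: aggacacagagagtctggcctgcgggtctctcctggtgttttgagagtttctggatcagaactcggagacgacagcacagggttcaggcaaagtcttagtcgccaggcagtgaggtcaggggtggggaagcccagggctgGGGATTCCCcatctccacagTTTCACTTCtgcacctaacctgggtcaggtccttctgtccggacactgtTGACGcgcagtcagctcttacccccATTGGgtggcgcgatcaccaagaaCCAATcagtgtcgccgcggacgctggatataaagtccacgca
H2-D1: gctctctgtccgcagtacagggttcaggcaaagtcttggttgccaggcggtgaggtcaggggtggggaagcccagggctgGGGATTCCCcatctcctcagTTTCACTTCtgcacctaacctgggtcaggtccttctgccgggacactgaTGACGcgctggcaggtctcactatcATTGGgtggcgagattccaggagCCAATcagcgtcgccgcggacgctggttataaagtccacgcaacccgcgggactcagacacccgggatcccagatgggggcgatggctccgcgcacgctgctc
B2m: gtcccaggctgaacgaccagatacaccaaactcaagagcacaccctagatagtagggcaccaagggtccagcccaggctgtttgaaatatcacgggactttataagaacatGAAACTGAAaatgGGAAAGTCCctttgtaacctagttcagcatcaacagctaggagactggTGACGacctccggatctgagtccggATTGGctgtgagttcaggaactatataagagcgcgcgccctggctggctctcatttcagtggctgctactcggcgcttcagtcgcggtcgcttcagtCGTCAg

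Windows were matched for 8 of the 10 members, and Tap2 and Nlrc5 were not used here. The H2-K1 and H2-D1 windows were 88.3% identical over 239 aligned bases, and each held the class I enhancer form of the NF-kB-type motif, GGGATTCCC, which was in 0.353% of the 32851 RefSeq windows. Both also held the IRF-type motif GAANNGAAA, present in 7.52% of all windows. B2m held another IRF-type form, GAAANNGAA (8.56% of all windows), whose matches can overlap those of GAANNGAAA, and the NF-kB-type form GGANNTTCC (4.26%). The CRE-type core TGACG, which is part of the X2 box read by the NLRC5 complex, was in the windows of Tap1, Psmb9, H2-K1, H2-D1 and B2m and in 20.8% of all windows. The Y box core CCAAT was in those 5 and in Tapbp, and in 37.4% of all windows. The STAT-type motif TTCNNNGAA was in Psmb8 alone of the 8 and in 8.3% of all windows. A match only says that these letters occur in the window.

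Tap1 and Psmb9 share 1 stretch of promoter. Their annotated starts lie 226 bases apart on opposite strands of chromosome 17, and their windows have 275 of 300 bases in common. The TGACG and CCAAT matches given above for Tap1 and for Psmb9 are the same bases read on opposite strands, not separate sites. In the order of RefSeq genes on that chromosome, Psmb9, Tap1, Psmb8 and Tap2 follow each other directly among protein-coding genes, between the class II genes H2-DMb1 and H2-Ob.

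More class I processing probes passed the test between the 2 compounds than between either compound and vehicle. In T6877002 macrophages 9 of 18 probes, for 8 of the 10 genes, were higher than in T6860766 macrophages and 0 were lower, by limma's moderated test at an adjusted p under 0.05, where 3% of all detected probes were called higher and 0.95% lower (3.95% in all). The 8 genes were Tap1, Tap2, Tapbp, H2-K1, Psmb8, Psmb9, Psmb10 and Nlrc5, and the called log2 differences ran from 0.25 for Psmb10 to 0.60 for Nlrc5, a 1.52-fold difference. The median log2 difference over the 18 probes was 0.36, against -0.018 over all detected probes. The difference was positive for 16 of 18 probes (45.3% of all detected probes), had an unadjusted p under 0.05 for 14 (15.8%), and left every T6877002 array above every T6860766 array for 11 (9.11%). Because the set was chosen with earlier results of these arrays known, these shares describe the set and do not test it.

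Against vehicle the median difference was negative for T6860766 and positive for T6877002, and the member calls were all in T6860766. In T6860766 macrophages Tap1 and Nlrc5 fell relative to CTRL, which makes 2 of 18 probes lower and 0 higher, where 1.54% of all detected probes were called lower and 0.865% higher (2.4% in all). There 17 of 18 log2 differences were negative and 1 positive, where 51.6% of all detected probes were positive, with a median of -0.22. An unadjusted p under 0.05 was reached by 9 probes, all lower in T6860766 (11.9% of all detected probes in either direction), and 6 probes had every T6860766 array below every CTRL array (7.55%). In T6877002 macrophages 0 of 18 probes passed the threshold against CTRL by limma, with a lowest adjusted p of 0.12, where 2.52% of all detected probes were called, 1.68% higher and 0.841% lower. Of the 18 differences, 14 were positive (47.6% of all detected probes), with a median of 0.13, and 5 probes had every T6877002 array above every CTRL array (10.7%). With slide as a fixed block in the fit, 11 of the 18 differences were positive and their median was 0.02. Separately, 4 probes had an unadjusted p under 0.05, all of them higher in T6877002, where 15.5% of all detected probes had such a p in either direction. The means ran in the order T6877002, CTRL, T6860766 from high to low for 14 of 18 probes, against 15.8% of all detected probes. Every single array kept that order for 2 probes, those of Tap1 and Psmb9, against 0.975% of all detected probes. The comparisons share arrays, so their counts are not separate evidence.

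**Figure D1:**
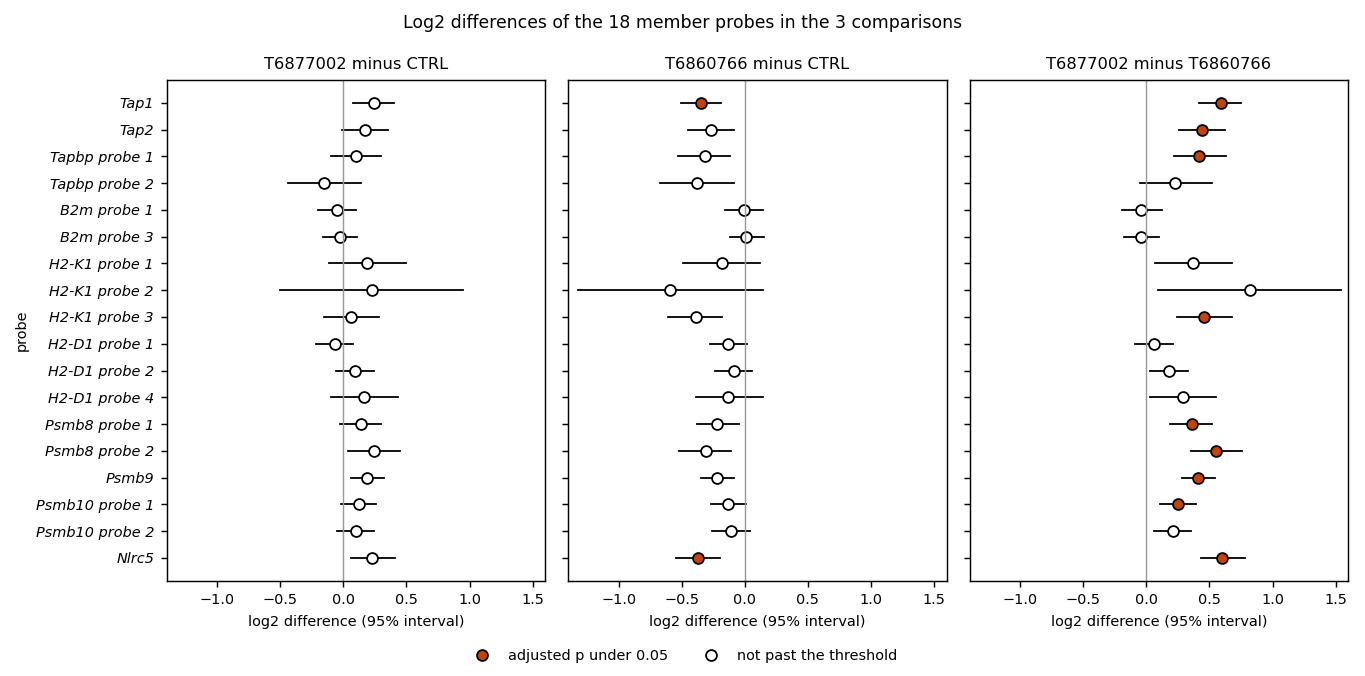
Log2 difference of the 18 member probes (rows) in T6877002 minus CTRL, T6860766 minus CTRL and T6877002 minus T6860766, with the 95% interval of the limma fit as a bar and filled points for an adjusted p under 0.05. No point is filled in the panel of T6877002 minus CTRL, 2 are filled in that of T6860766 minus CTRL, and 9 in that of T6877002 minus T6860766, all to the right of 0.

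Tap1 encodes the transporter subunit that gave the clearest separation. Its log2 normalised intensity was 8.83, 8.79 and 8.79 in T6877002, 8.26, 8.18 and 8.19 in T6860766, and 8.55, 8.57 and 8.56 in CTRL. The 3 groups did not overlap: every T6877002 array was the highest, every T6860766 array the lowest, and the arrays within a group lay within 0.08 of each other. Tap1 was 0.59 ± 0.08 higher on the log2 scale (SE, 3 arrays a group) in T6877002 than in T6860766, 1.5-fold, with a limma adjusted p of 6.2e-05. Against CTRL it fell by 0.35 in T6860766 (adjusted p = 0.0173 by limma), while the difference of 0.24 in T6877002 had an adjusted p of 0.12 by limma. The call of T6860766 against CTRL was lost without CTRL replicate 2, CTRL replicate 3 or T6860766 replicate 2 (limma adjusted p of at most 0.0815) and with median scaling in place of quantile normalisation (0.455).

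Tap2 encodes the partner subunit of the transporter. It measured 12.03, 12.03 and 11.98 in T6877002, 11.33, 11.66 and 11.73 in T6860766, and 11.72, 11.93 and 11.88 in CTRL. The T6877002 arrays lay above all others, and the T6860766 and CTRL arrays overlapped. Between the compounds the log2 difference was 0.44 ± 0.09 (SE), 1.36-fold, with a limma adjusted p of 0.00346. That call was lost when the prior spread did not follow the mean signal (limma adjusted p = 0.0813). In that setting 4 of the 9 member calls between the compounds remained, those of Tap1, Psmb8 probe 2, Psmb9 and Nlrc5. Against CTRL neither T6877002, at 0.17 (adjusted p = 0.355 by limma), nor T6860766, at -0.27 (adjusted p = 0.131 by limma), passed the threshold.

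Tapbp encodes tapasin, and its 2 probes did not give the same picture. Probe 1 measured 9.11, 9.0 and 8.97 in T6877002, 8.38, 8.68 and 8.76 in T6860766, and 8.87, 9.06 and 8.86 in CTRL. All T6860766 arrays were below all others on this probe, and T6877002 was higher than T6860766 by 0.42 ± 0.10 (SE, log2; limma adjusted p = 0.0134). Probe 2 measured 7.61, 7.58 and 7.62 in T6877002, 7.19, 7.25 and 7.68 in T6860766, and 7.75, 8.04 and 7.47 in CTRL. On that probe the groups overlapped, the CTRL mean was the highest, and the log2 difference between the compounds was 0.23 with a 95% interval of -0.05 to 0.52. The call on probe 1 was lost without T6877002 replicate 1, T6877002 replicate 2 or T6860766 replicate 1 (limma adjusted p of at most 0.0984) and with median scaling (0.156).

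**Figure D2:**
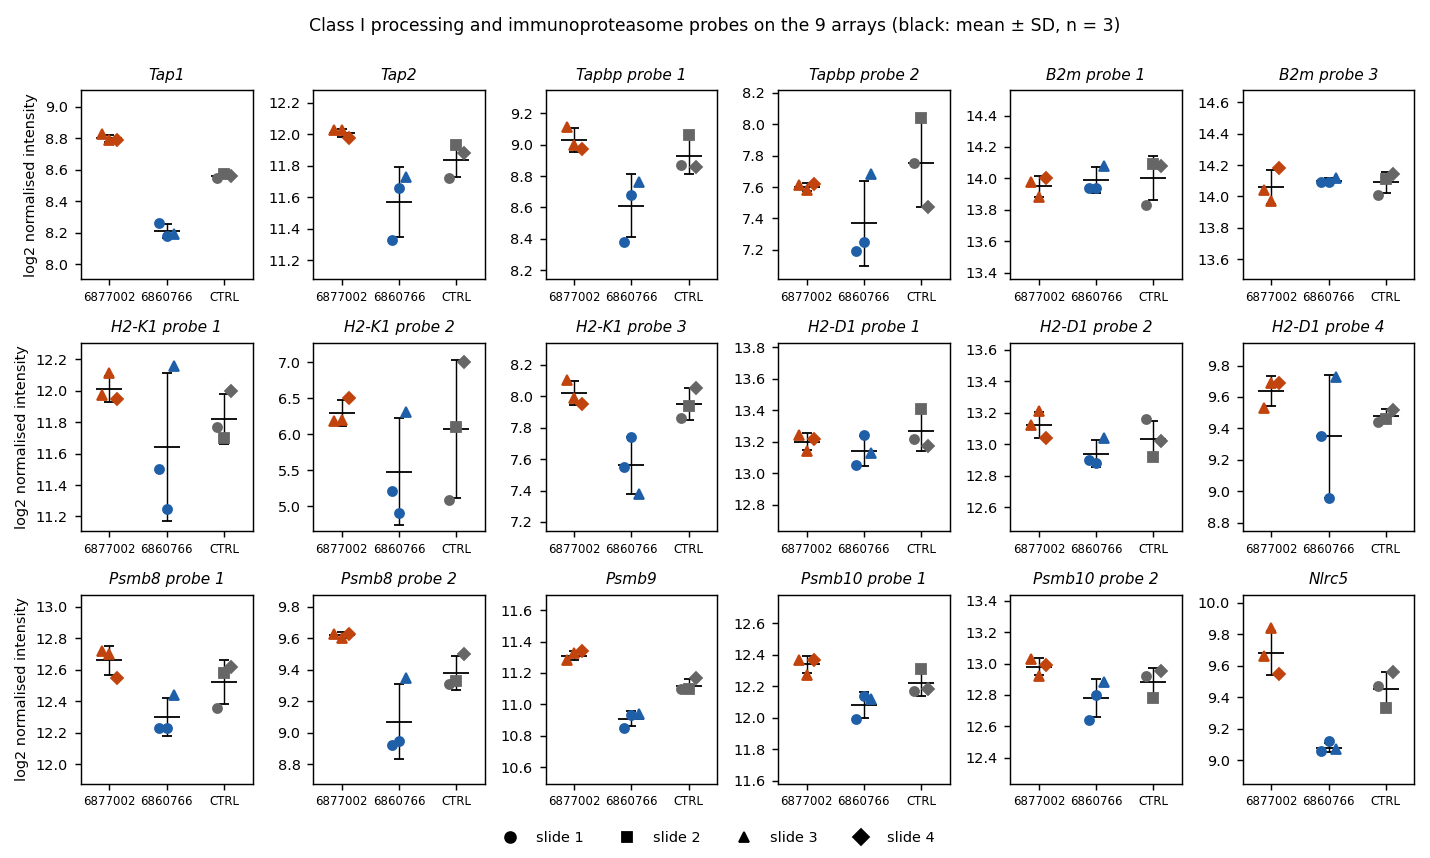
Log2 normalised intensity of each of the 18 member probes (1 panel each, with its own vertical axis) on the T6877002, T6860766 and CTRL arrays, with the mark's shape giving the slide and black bars the mean ± SD of 3 arrays. The 3 groups stand apart for Tap1 and Psmb9, the T6860766 arrays lie below all others for Nlrc5, and the B2m panels show 3 overlapping groups.

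The immunoproteasome subunits Psmb8, Psmb9 and Psmb10 replace the constitutive subunits Psmb5, Psmb6 and Psmb7 at the active sites, and all 3 had at least 1 probe higher in T6877002 than in T6860766. Psmb9, the subunit whose gene shares the Tap1 promoter, measured 11.28, 11.33 and 11.34 in T6877002, 10.85, 10.93 and 10.94 in T6860766, and 11.10, 11.10 and 11.17 in CTRL. The 3 groups were again apart on every array. The log2 difference between the compounds was 0.41 ± 0.06 (SE), 1.33-fold, with a limma adjusted p of 0.000299. Its log2 differences from CTRL, 0.19 in T6877002 (adjusted p = 0.122) and -0.22 in T6860766 (adjusted p = 0.0796), did not pass limma's threshold. With median scaling the adjusted p of Psmb9 between the compounds was 0.0727 by limma.

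Psmb8, the subunit with the chymotrypsin-like activity of the immunoproteasome, was higher on both of its probes in T6877002 than in T6860766. Probe 1 measured 12.72, 12.70 and 12.55 in T6877002, 12.23, 12.23 and 12.44 in T6860766, and 12.36, 12.58 and 12.62 in CTRL. Probe 2 measured 9.63, 9.60 and 9.63 in T6877002, 8.92, 8.95 and 9.35 in T6860766, and 9.31, 9.33 and 9.50 in CTRL. The compounds did not overlap on either probe, and T6860766 replicate 3 was the highest of its group on both. The log2 differences between the compounds were 0.36 ± 0.08 for probe 1 (SE; limma adjusted p = 0.00988) and 0.55 ± 0.10 for probe 2 (SE; limma adjusted p = 0.00144). The call on probe 1 was lost without T6877002 replicate 1, T6877002 replicate 2 or T6860766 replicate 2 (limma adjusted p of at most 0.0786) and with median scaling (0.15).

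Psmb10, the trypsin-like subunit, had the smallest called difference. Probe 1 measured 12.37, 12.27 and 12.37 in T6877002, 11.99, 12.14 and 12.12 in T6860766, and 12.17, 12.31 and 12.18 in CTRL. Probe 2 measured 13.03, 12.92 and 12.99 in T6877002, 12.64, 12.80 and 12.88 in T6860766, and 12.92, 12.78 and 12.95 in CTRL. On both probes every T6877002 array was above every T6860766 array, and T6877002 overlapped CTRL. The log2 difference between the compounds was 0.25 ± 0.07 on probe 1 (SE; limma adjusted p = 0.0339) and 0.21 ± 0.07 on probe 2, which did not pass (SE; limma adjusted p = 0.126). The call on probe 1 was lost without any 1 of the T6877002 arrays, T6860766 replicate 1 or T6860766 replicate 2 (limma adjusted p of at most 0.176) and with median scaling (0.474). Against CTRL the log2 differences of Psmb8 and Psmb10 ran from 0.10 to 0.24 in T6877002 and from -0.31 to -0.11 in T6860766, and none passed the threshold.

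The classical heavy chains H2-K1 and H2-D1 gave results that depended on the probe. Class I heavy chain genes are related in sequence and the probe sequences were not used here, so a probe may also read other heavy chains. Probe 3 of H2-K1 was called: it measured 8.10, 7.99 and 7.95 in T6877002, 7.55, 7.74 and 7.38 in T6860766, and 7.86, 7.94 and 8.05 in CTRL. All T6860766 arrays were the lowest, T6877002 and CTRL overlapped, and the log2 difference between the compounds was 0.46 ± 0.10 (SE; limma adjusted p = 0.0122). On this probe T6860766 lay 0.39 below CTRL on the log2 scale, with a limma adjusted p of 0.0513, just outside the threshold. The call between the compounds was lost without T6877002 replicate 1 or T6877002 replicate 2 (limma adjusted p of at most 0.0919) and with median scaling (0.142).

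On probes 1 and 2 of H2-K1, T6860766 replicate 3 stood far above the other T6860766 arrays. Probe 1 measured 11.97, 12.11 and 11.95 in T6877002, 11.50, 11.25 and 12.16 in T6860766, and 11.77, 11.70 and 12.00 in CTRL, so that T6860766 held both the lowest and the highest array. Probe 2 measured 6.18, 6.20 and 6.51 in T6877002, 5.21, 4.91 and 6.31 in T6860766, and 5.09, 6.10 and 7.01 in CTRL. On probe 2 the 3 arrays of slide 1 were at 4.91 to 5.21 and the other 6 arrays at 6.10 to 7.01, whatever their group. The log2 differences between the compounds were 0.37 on probe 1 (limma adjusted p = 0.201) and 0.82 on probe 2, with a 95% interval of 0.09 to 1.54 before adjustment and a limma adjusted p of 0.248.

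H2-D1 passed no test on its 3 detected probes. Probe 1 measured 13.24, 13.14 and 13.22 in T6877002, 13.05, 13.24 and 13.13 in T6860766, and 13.22, 13.41 and 13.17 in CTRL. Probe 2 measured 13.12, 13.21 and 13.04 in T6877002, 12.90, 12.88 and 13.04 in T6860766, and 13.16, 12.92 and 13.02 in CTRL. Probe 4 measured 9.53, 9.69 and 9.69 in T6877002, 9.35, 8.96 and 9.73 in T6860766, and 9.44, 9.46 and 9.52 in CTRL. The T6877002 arrays cleared the T6860766 arrays on probe 2 and the CTRL arrays on probe 4, each by 0.01 or less, and the groups otherwise overlapped. The 95% intervals of the log2 difference between the compounds were -0.09 to 0.21, 0.03 to 0.33 and 0.03 to 0.55, and the limma adjusted p-values 0.745, 0.2 and 0.257.

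B2m, the light chain common to classical class I molecules, gave no difference in any comparison. Probe 1 measured 13.98, 13.88 and 14.00 in T6877002, 13.94, 13.94 and 14.08 in T6860766, and 13.83, 14.09 and 14.08 in CTRL. Probe 3 measured 14.04, 13.97 and 14.18 in T6877002, 14.09, 14.09 and 14.12 in T6860766, and 14.01, 14.11 and 14.14 in CTRL. All groups overlapped on both probes. The log2 difference between the compounds was -0.04 on each, with 95% intervals of -0.19 to 0.12 and -0.18 to 0.10. These probes lay close to the top of the scale, whose highest value in the table was 14.39, and the part of that ceiling in the B2m result was not tested.

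Nlrc5 encodes the transactivator that is known to switch on class I heavy chain, B2m, Tap1 and Psmb9 genes. It measured 9.66, 9.84 and 9.55 in T6877002, 9.06, 9.12 and 9.07 in T6860766, and 9.47, 9.33 and 9.56 in CTRL. The T6860766 arrays were the lowest without overlap, and the lowest T6877002 array lay just below the highest CTRL array. Nlrc5 was higher in T6877002 than in T6860766 by 0.60 ± 0.08 (SE, log2), 1.52-fold, with a limma adjusted p of 0.000111. It fell by 0.37 on the log2 scale in T6860766 against CTRL (limma adjusted p = 0.0191), and the difference of 0.23 in T6877002 against CTRL did not pass (limma adjusted p = 0.171). The call of Nlrc5 in T6860766 against CTRL was lost without CTRL replicate 1, CTRL replicate 3, T6860766 replicate 1 or T6860766 replicate 2 (limma adjusted p of at most 0.102) and with median scaling (0.277).

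Across the 9 arrays the members varied with Tap1 to different degrees. Pearson's r of the log2 values with those of Tap1 was 0.96 for Psmb9, 0.93 for Nlrc5, 0.83 and 0.86 for the Psmb8 probes, 0.84 and 0.71 for the Psmb10 probes and 0.81 for Tap2. It was 0.80 and 0.43 for the Tapbp probes, 0.52, 0.50 and 0.85 for H2-K1 probes 1, 2 and 3, and 0.30, 0.66 and 0.52 for H2-D1 probes 1, 2 and 4. The B2m probes gave -0.15 and -0.26. These values describe 9 arrays that share groups, slides and one normalisation.

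Each pair of groups could be compared on 1 slide, with 2 or 3 arrays and no test. On slide 3, with 2 T6877002 arrays and 1 T6860766 array, the log2 difference between the compounds was 0.61 for Tap1, 0.68 for Nlrc5, 0.36 for Psmb9, 0.30 for Tap2, 0.27 for each Psmb8 probe and 0.67 for H2-K1 probe 3. On the same slide it was -0.12 for H2-K1 probes 1 and 2 and for H2-D1 probe 4, and over all 18 probes 12 were positive with a median of 0.16. On slide 1, with 2 T6860766 arrays and 1 CTRL array, 16 of 18 differences were negative with a median of -0.22, at -0.33 for Tap1 and -0.38 for Nlrc5. On slide 4, with 1 T6877002 and 1 CTRL array, Tap1 differed by 0.23, Psmb9 by 0.17 and Nlrc5 by 0, and the median over the 18 probes was 0.05. With slide as a fixed block in limma, 6 of the 9 calls between the compounds remained (3.52% of all detected probes called). They were those of Tap1, Tap2, H2-K1 probe 3, Psmb8 probe 2, Psmb9 and Nlrc5. Tap1 and Nlrc5 remained lower in T6860766 than in CTRL (limma adjusted p = 0.0466 and 0.00347), where 2.28% were called. Tapbp probe 1, Psmb8 probe 1 and Psmb10 probe 1 were lost under the block, with limma adjusted p-values of 0.0612, 0.124 and 0.0985, and the log2 difference of H2-K1 probe 2 turned to -0.23. Under the block the median over the 18 probes was 0.19 between the compounds, -0.21 in T6860766 minus CTRL and 0.02 in T6877002 minus CTRL.

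**Figure D3:**
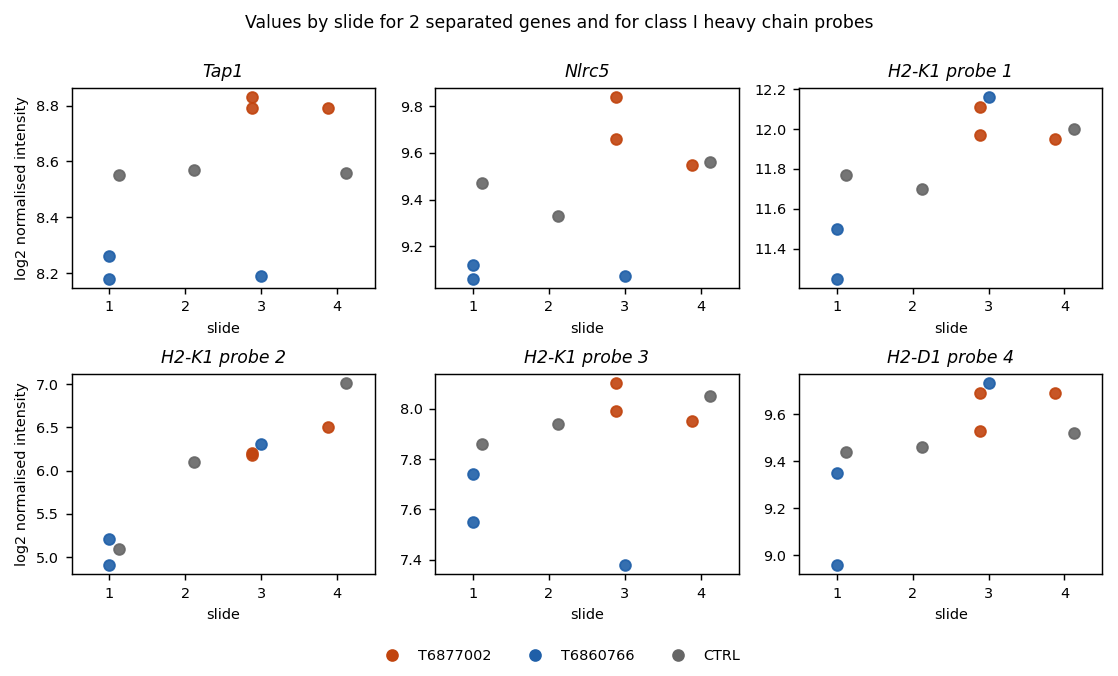
Log2 normalised intensity by slide (horizontal axis) for Tap1, Nlrc5, H2-K1 probes 1 to 3 and H2-D1 probe 4, 1 point per array with its group in colour. For Tap1 and Nlrc5 the T6860766 array on slide 3 lies with the T6860766 arrays of slide 1, and for H2-K1 probes 1 and 2 and H2-D1 probe 4 it lies with or above the T6877002 arrays of its own slide.

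Single arrays weighed on the counts. Without T6860766 replicate 3 the number of member probes called between the compounds was 14, where 8.08% of all detected probes were called, and the number lower in T6860766 than in CTRL was 8, where 3.46% were called. Without T6877002 replicate 1, and likewise without T6877002 replicate 2, 5 probes were called between the compounds, where 2.39% of all detected probes were called. Without CTRL replicate 3 none was called in T6860766 against CTRL, where 1.67% of all detected probes were called. In the same comparison 1 probe was called without CTRL replicate 1, CTRL replicate 2, T6860766 replicate 1 or T6860766 replicate 2, where 1.06% to 1.96% of all detected probes were called. Without T6860766 replicate 2 that probe was neither that of Tap1 nor that of Nlrc5, which both lost their calls. The differences of Tap1 and Nlrc5 between the compounds passed the threshold under all 21 alternatives tried, leave-outs included. Against CTRL their differences in T6860766 passed under 14 of 21 and were negative under all 21, at -0.37 to -0.28 for Tap1 and -0.47 to -0.32 for Nlrc5 on the log2 scale.

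Beyond the members, 8 lists of class I pathway genes held 119 detected probes for 74 genes. Between the compounds 15 of these probes (12.6%) were higher in T6877002 and 0 lower, against 3% and 0.95% of all detected probes. Without T6860766 replicate 3 the count was 25, with 24 higher and 1 lower, where 8.08% of all detected probes were called. Against CTRL 7 of the 119 (5.88%) were higher in T6877002, where 2.52% of all detected probes were called in either direction, and 4 (3.36%), 1 higher and 3 lower, differed in T6860766, where 2.4% were. The calls between the compounds fell in 3 lists: 7 of 18 probes of transcription regulators, 7 of 25 probes of other class I heavy chains and 1 of 14 probes of peptide loading and trimming genes. Of the remaining lists, none of 12 probes for proteasome activators and assembly factors, 7 for constitutive catalytic subunits, 11 for other 20S core subunits, 26 for 19S cap subunits and 6 for cytosolic peptidases was called between the compounds. The median log2 difference was 0.368 for the transcription regulators, 0.248 for the other heavy chains and 0.002 for the constitutive catalytic subunits. These lists were chosen with earlier results of the same arrays known.

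**Figure D4:**
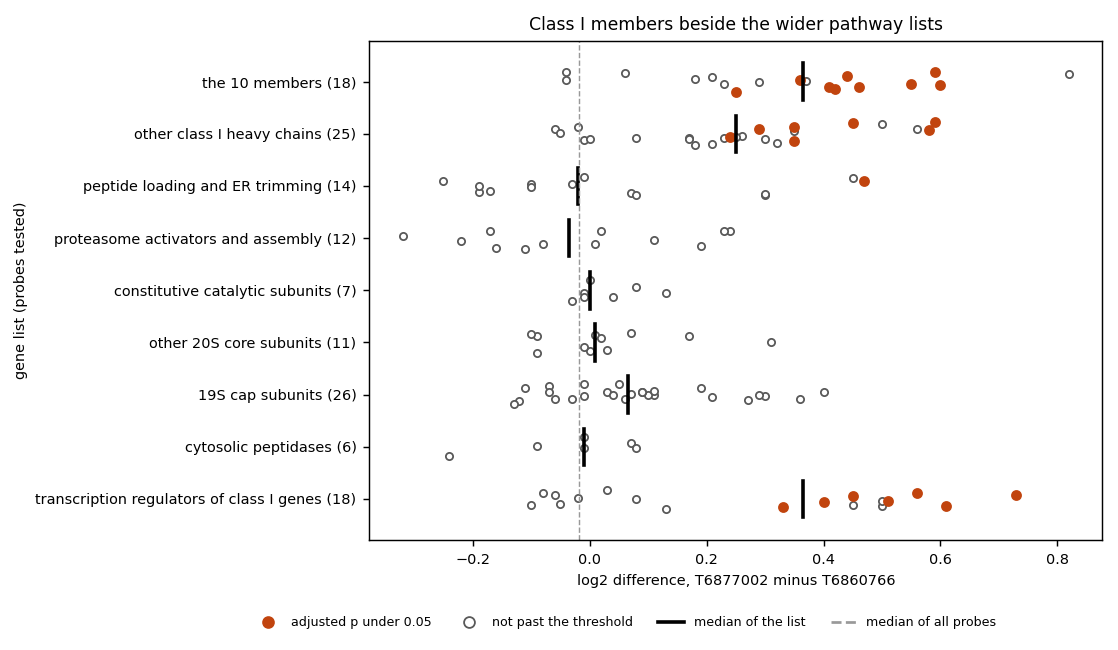
Log2 difference T6877002 minus T6860766 of each detected probe in the 10-gene set and in 8 wider class I pathway lists (rows, probes tested in brackets), with filled points for a limma adjusted p under 0.05, black bars at list medians and a dashed line at the median of all detected probes. Filled points occur in the 10-gene set, the other heavy chains, peptide loading and the transcription regulators, and the constitutive catalytic subunits lie between -0.03 and 0.13.

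Of the transcription regulators, Irf1, Stat2, Irf2 and Irf8 were higher in T6877002 than in T6860766. Irf1, an activator of class I and immunoproteasome genes, was measured by 5 probes, and its brightest measured 13.46, 13.44 and 13.50 in T6877002, 12.93, 13.09 and 13.03 in T6860766, and 12.86, 13.01 and 13.06 in CTRL. T6877002 stood above the other groups, which overlapped each other. Of the 5 Irf1 probes, 4 were higher in T6877002 than in CTRL and 4 higher than in T6860766, while T6860766 minus CTRL lay between -0.08 and 0.04 on the log2 scale with none called. Stat2, a subunit of the interferon-activated ISGF3 complex, measured 9.61, 9.61 and 9.56 in T6877002, 8.72, 8.93 and 8.93 in T6860766, and 9.15, 9.47 and 9.30 in CTRL, and no groups overlapped. It fell by 0.45 in T6860766 against CTRL on the log2 scale (limma adjusted p = 0.00721), differed by 0.29 in T6877002 against CTRL (limma adjusted p = 0.1), and was 0.73 higher in T6877002 than in T6860766 (limma adjusted p = 1.96e-05). The call of Stat2 against CTRL was lost without CTRL replicate 2 (limma adjusted p = 0.0609), and 1 of the 4 Irf1 calls against CTRL was lost without CTRL replicate 1, CTRL replicate 3 or any 1 of the T6877002 arrays (limma adjusted p of at most 0.126).

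Irf2, which binds the same elements as Irf1, fell by 0.26 on the log2 scale in T6860766 against CTRL (limma adjusted p = 0.0374) and was 0.33 higher in T6877002 than in T6860766 (limma adjusted p = 0.00304). Ciita, the class II transactivator, was 0.84 ± 0.16 higher in T6877002 than in CTRL on 1 of its probes (SE, log2; limma adjusted p = 0.00423). That Ciita probe measured 6.57, 6.14 and 6.52 in T6877002, 5.70, 6.07 and 5.96 in T6860766, and 5.77, 5.38 and 5.56 in CTRL. Its log2 differences were 0.34 in T6860766 against CTRL and 0.50 between the compounds, and neither passed (limma adjusted p = 0.393 and 0.095). Irf8, a factor of macrophage development that also binds interferon response elements, measured 8.46, 8.58 and 8.61 in T6877002, 8.10, 7.98 and 8.36 in T6860766, and 8.24, 8.11 and 8.20 in CTRL. The T6877002 arrays lay above all others, and the difference from T6860766 was 0.40 (limma adjusted p = 0.0224). Against CTRL it was 0.37 in T6877002 (limma adjusted p = 0.0522) and -0.03 in T6860766. The Irf8 call was lost without T6877002 replicate 2 or 3 and without T6860766 replicate 1 or 2 (limma adjusted p of at most 0.162), with slide as a fixed block, with median scaling, without a filter on dim probes and without the trend (limma adjusted p of at most 0.223), and it was kept with slide as a random block. The fall of Irf2 was lost in 7 of 9 leave-outs, with the exceptions of CTRL replicate 1 and T6860766 replicate 3 (limma adjusted p of at most 0.168), and the Ciita call was lost with slide as a block (limma adjusted p = 0.0526).

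Non-classical heavy chains gave calls on several probes. H2-T23, which encodes the Qa-1 chain read by NKG2A receptors, was higher in T6877002 than in CTRL on 2 of its 3 detected probes, by 0.46 and 0.26 on the log2 scale (limma adjusted p = 0.0104 and 0.0367), and all 3 probes were higher in T6877002 than in T6860766, by 0.59, 0.35 and 0.24. H2-T10 was higher in T6877002 than in T6860766 on 2 probes, by 0.58 and 0.45, and 1 of these was 0.34 lower in T6860766 than in CTRL (limma adjusted p = 0.0352). Another detected H2-T10 probe differed by 0.30 between the compounds and did not pass (limma adjusted p = 0.348). A probe of H2-Q7 was 0.35 higher in T6877002 than in T6860766 (limma adjusted p = 0.0472), and 1 of 2 probes of H2-Q5 was 0.29 higher (limma adjusted p = 0.0128). The other detected H2-Q7 probe differed by -0.01 (limma adjusted p = 0.991). Tapbpl, a tapasin relative that edits peptides on class I molecules, was 0.47 ± 0.10 higher in T6877002 than in T6860766 on 1 of 3 probes (SE, log2; limma adjusted p = 0.00522). Single arrays ended several of these calls: those of H2-T23 against CTRL without CTRL replicate 1 or T6877002 replicate 3, the smaller of them without any other CTRL or T6877002 array as well, that of H2-T10 against CTRL without any array but CTRL replicate 1 or T6860766 replicate 3, and that of Tapbpl without T6877002 replicate 1. The H2-Q5 call was lost without T6877002 replicate 1 or 2 or T6860766 replicate 1 or 2 (limma adjusted p of at most 0.084), and the smallest of the 3 H2-T23 calls between the compounds was lost in 7 of 9 leave-outs, with the exceptions of T6860766 replicates 1 and 3. The smaller of the called H2-T10 differences between the compounds was lost without any 1 of the T6877002 arrays or T6860766 replicates 1 or 2. The H2-Q7 call was lost without CTRL replicate 2, T6860766 replicate 2 or any 1 of the T6877002 arrays (limma adjusted p of at most 0.285 for both).

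The constitutive counterparts of the immunoproteasome subunits gave no call. The 7 probes of Psmb5, Psmb6 and Psmb7 differed between the compounds by -0.03 to 0.13 on the log2 scale, where the members Psmb8, Psmb9 and Psmb10 differed by 0.21 to 0.55. The difference between those sets of subunits was not tested. The PA28 activator genes Psme1 and Psme2 did not pass either: the Psme1 probes were 0.24 and 0.19 higher in T6877002 than in T6860766 (limma adjusted p = 0.0643 and 0.11) and the Psme2 probe 0.11 (limma adjusted p = 0.56). Erap1, the peptidase that trims class I peptides in the endoplasmic reticulum, differed by 0.45 with a 95% interval of 0.09 to 0.81 and a limma adjusted p of 0.182. Psmg2, a proteasome assembly chaperone, was the 1 gene of these lists higher in T6860766 than in CTRL, by 0.48 on 1 of 3 probes (limma adjusted p = 0.0451). That call was lost in 8 of 9 leave-outs, without any array but T6860766 replicate 1 (limma adjusted p of at most 0.234).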

How the data were processed

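Total RNA from 9 macrophage samples was measured on Illumina mouse bead arrays. Per the file headers, 1 deposited table holds un-normalised probe intensity, with the detection p-value beside it. GenomeStudio 2011.1, R 3.1.3 and limma 3.22.7 are listed in the submitters' processing notes. The log2 values deposited by the authors differed from values made here from the intensities by neqc (background correction, offset 16, quantile normalisation) by at most 0.0161, with a median of 0.000141.

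The deposited log2 values of 16415 probes (detection p under 0.05 on at least 3 of 9 arrays) entered 1 limma 3.58.1 fit in R 4.3.3, with a coefficient per group and eBayes with trend. Groups were compared with two-sided moderated tests and Benjamini-Hochberg adjustment over all 16415 probes, per comparison. An exact permutation test of 3 arrays against 3 cannot go below 0.1. The p-values measure the spread between the arrays within groups, where each array has a different mouse number, and the number of arrays limits the precision. The main fit takes the arrays as separate, although the same mouse numbers recur in every group. Probe symbols came from the platform annotation (34885 probes with 1 symbol, 18 with several, 10378 with none). Named genes were all members, the called genes of the 8 lists (at most 4 genes per list and comparison, by size) and a fixed set of regulators and subunits. The members and lists were chosen with earlier results of these data known. The fit was tested on simulated data, where it called 4.48% of probes changed by 0.25 on the log2 scale. It called 41.8% of those changed by 0.5 and 87.9% of those changed by 1. A missing call at a small size therefore does not show that a probe was unchanged. Alternatives covered the background correction, normalisation, filters, trend, array weights, slide and mouse blocks and each array left out.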

Additional observations from a re-analysis of the deposited data

How the results depend on the processing

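Neqc values, no background correction and detection on all 9 arrays changed no count of member calls by more than 1.5 times. The calls of Tap1, Nlrc5 and Psmb8 probe 2 between the compounds held under every alternative run on them. In T6860766 against CTRL the 2 member calls (2.4% of all probes called) became 0 with median scaling (1.19%), 0 without a filter on dim probes (0.607%), 0 without the trend (0.439%) and 1 with only the 2 groups compared (1.46%), and leaving out 1 array gave 0 to 8. Between the compounds the 9 member calls (3.95% of all probes called) became 5 with median scaling (2.33%), of which 4 were among the 9. They became 4 without the trend (2.28%) and 14 with array weights (8.65%), and leaving out 1 array gave 5 to 14. In T6877002 against CTRL the member calls were 0 with each array left out. Of the 119 wider list probes, 7 were called in T6877002 against CTRL (2.52% of all probes called). These became 3 with 1 probe per gene (2.99%), which left 74 list probes, and 3 without the trend (0.969%). They became 14 with array weights, 13 higher and 1 lower (4.61%), and 12 with only the 2 groups (4.61%). Leaving out 1 array gave 4 to 12 (1.17% to 4.68%). The 4 calls in T6860766 against CTRL (2.4%) became 1 with median scaling (1.19%), 1 without a filter (0.607%) and 2 with 1 probe per gene (2.88%). They became 0 without the trend (0.439%), 1 with only the 2 groups (1.46%), 2 with the mouse block (2.41%) and 1 with the fixed slide block (2.28%). Leaving out 1 array gave 0 to 6 (1.06% to 3.46%). The 15 calls between the compounds (3.95%) became 7 with median scaling (2.33%) and 6 without the trend (2.28%). They became 25 with array weights, 24 higher and 1 lower (8.65%), and 10 to 25 with 1 array left out (2.39% to 8.08%). The cause of these changes was not tested.

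Signs turned on probes that were not called. With slide as a fixed block, T6877002 minus CTRL became 0 for B2m probe 3, -0.23 and -0.36 for H2-K1 probes 1 and 2, 0.02, -0.04 and -0.06 for H2-D1 probes 1, 2 and 4 and -0.01 for Psmb10 probe 2. T6860766 minus CTRL became 0.10 for B2m probe 1 (0.02 with slide as a random block) and, with median scaling, -0.15 for B2m probe 3, and H2-K1 probe 2 became -0.23 between the compounds with the fixed slide block. With 1 array left out, T6877002 minus CTRL ran from -0.09 to 0.02 for B2m probe 3, -0.26 to 0.70 for H2-K1 probe 2 and -0.12 to 0 for H2-D1 probe 1. T6860766 minus CTRL then ran from -0.09 to 0.03 for B2m probe 1, -0.02 to 0.04 for B2m probe 3, -0.44 to 0.01 for H2-K1 probe 1 and -0.32 to 0.07 for H2-D1 probe 4. Between the compounds it ran from -0.06 to 0.01 and -0.10 to 0.01 for B2m probes 1 and 3.

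With the mouse number as a replicate block the member calls were 0 in T6877002 against CTRL, where 2.47% of all probes were called. They were 3 in T6860766 against CTRL (2.41%) and 9 between the compounds (3.69%). The numbers were not taken as pairing the samples in the main fit, because the labels do not say that groups share animals. Arrays of the same number had correlations of -0.14 to 0.15 between their deviations from the group means over 9 pairs. No pairs of different numbers were set beside them, so these values cannot show whether groups share animals.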

Other observations

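The named probes outside the set whose log2 values across the 9 arrays ran closest to the mean standardised value of the members belonged to Gm12250, Il27, Irgm2, Atp6v0a2, Il15, Cxcl10, Nt5c3 and Nod1, with Pearson's r between 0.965 and 0.994. Gm12250 and Irgm2 encode interferon-inducible GTPases, Cxcl10 a chemokine that draws CXCR3-bearing T cells, Il15 a cytokine that sustains NK and CD8+ T cells, and Il27 a cytokine subunit. Nod1 encodes a sensor of bacterial peptidoglycan.

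Cxcl10 was 1.79 higher on the log2 scale in T6877002 than in T6860766 (limma adjusted p = 2.45e-06). It was 0.72 higher in T6877002 than in CTRL (limma adjusted p = 0.0385) and fell by 1.06 in T6860766 against CTRL (limma adjusted p = 0.00253). Il15 was 0.40 higher in T6877002 than in CTRL and fell by 0.52 in T6860766 against CTRL (limma adjusted p = 0.00844 and 0.00109). Gm12250 had the highest r, and it fell by 0.70 in T6860766 against CTRL (limma adjusted p = 0.000835), with a difference of 0.31 in T6877002 against CTRL that did not pass (limma adjusted p = 0.143). Atp6v0a2, a subunit of the proton pump of acidic compartments, passed in none of the 3 comparisons. These genes were chosen by likeness on the same 9 arrays, so their differences describe the likeness and do not add evidence to it.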
